A study of Mus musculus with 2 samples.

Results

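Genes of adventitial fibroblasts were examined in whole omentum, the sheet of abdominal fat that carries the lymphoid clusters called milky spots. Rows were taken by gene symbol for 10 genes: Ccl11, Clec3b, Gsn, Dpt, Pi16, Dpp4, Cd34, Smpd3, Sema3c and, as a general fibroblast gene, Pdgfra. All 10 were found among the 24346 gene symbols listed in each library. The WT library came from mice with unmodified Postn. The Postn-DTR library came from mice that carry the diphtheria toxin receptor in the first coding exon of Postn on 1 of the 2 copies, in a C57BL/6 background, so that cells using the Postn promoter can be killed by diphtheria toxin (DT). Both genotypes received DT, and omenta were taken 5 days later, so there was no library without DT. The age and sex of the mice, and whether a library held RNA of 1 mouse or of several, were not given in the sources used here. The Postn promoter is also used by mesenchymal cells outside the omentum, which limits Postn-DTR as a model of the omental cells alone.

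Adventitial fibroblasts lie in the outer sleeve of blood vessels and in the connective sheets of fat. In mouse fat, cells with PI16 and DPP4 on their surface are known as early progenitors that can give rise to committed preadipocytes, and they secrete matrix proteins and signals for leukocytes. The study placed Aldh1a2, the gene of a retinoic acid-producing enzyme, in a part of the Ccl11+ fibroblasts of the omentum and used Postn as the handle to remove those Aldh1a2+ fibroblastic reticular cells. The comparison therefore asked how genes of this wider fibroblast type stood in whole tissue after the toxin. The study also reported that the toxin removed part of another population of omental fibroblastic reticular cells.

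Levels are given in FPKM, fragment counts scaled to transcript length and to the mapped fragments of a library, as the authors deposited them, which allows levels of different genes to be compared per length. With 1 library per genotype there was no spread between replicates, no test was possible and no difference has a replicate check. Change means log2(FPKM + 1) in Postn-DTR minus that in WT, and the limit for a lower or higher gene was set at 2-fold, a change of -1 or 1. A ratio is the deposited Postn-DTR value over the WT value, with nothing added. The 95% intervals cover counting error only and rest on depths estimated from low values, close to 23300000 mapped fragments in WT and to 24000000 in Postn-DTR. In whole tissue, fewer cells of a type and less RNA per cell cannot be told apart.

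The libraries differed in ways that touch every gene. Pancreatic acinar genes (22 listed) took 2.28% of all FPKM in WT and 0.00321% in Postn-DTR. Amy2a5 was at 0 in both libraries, Try4 and Ctrc were at 0 in Postn-DTR, and all 21 that were compared were at least 2-fold lower there. The part of this acinar RNA in the other results was not tested. The FPKM summed to 542190 and 671882. Removing the acinar genes and giving both libraries the same total (equal totals below) shifted the median over all genes by -0.30. The acinar genes summed to 12346 FPKM in WT and 21.6 in Postn-DTR, so the unequal totals made up most of this shift. A change of about that size in a single gene therefore depends on the scaling. Postn itself was at 58.3 FPKM in WT and at 16.2 in Postn-DTR, which was in the direction of the labels.

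The genes split into a group that was lower in Postn-DTR and a group that was not. Dpt, Clec3b, Gsn and Ccl11 were each at least 2-fold lower, which is 4 of the 10, while none was at least 2-fold higher. Of all genes, 13127 reached an average of 1 FPKM over both libraries, and among these the share at least 2-fold lower was 3.12% and the share at least 2-fold higher was 3.88%. At equal totals the split of these changed genes turned, from 410 lower and 509 higher to 795 lower and 306 higher. Counting changes of any size, 6316 of the 13127 genes had a negative change and 6811 a positive one. All 10 members passed the minimum of 1 FPKM. Their median change was -0.51, beside 0.02 for all genes compared. These counts are not independent evidence of a direction, because the members were chosen with earlier results of these same libraries known. The remaining 6 genes lay within 2-fold, with changes from -0.70 for Sema3c to 0.50 for Smpd3.

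Sequences before the transcription start are shown for the pair of genes that had almost the same level in WT and parted in Postn-DTR, Dpt and Cd34, and for Gsn, the most abundant member, which has 3 annotated starts. Each is the 250 bases before a RefSeq start on build GRCm38.p6, on the strand of the gene. Windows were found for 7 of the 10 members, 9 windows in all, and Ccl11, Clec3b and Smpd3 had no window. Capitals mark matches on either strand to the CCAAT box (CCAAT), the GC box (GGGCGG), the TATA box (TATAAA) and the nuclear receptor half-site (AGGTCA), which do not overlap each other here.
Dpt, chr1:164796413-164796662, plus strand: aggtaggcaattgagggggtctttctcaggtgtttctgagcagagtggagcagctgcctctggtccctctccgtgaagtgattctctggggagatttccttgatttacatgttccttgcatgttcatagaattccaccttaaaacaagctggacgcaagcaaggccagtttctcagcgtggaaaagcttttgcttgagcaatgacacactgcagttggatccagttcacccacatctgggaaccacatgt
Cd34, chr1:194938571-194938820, plus strand: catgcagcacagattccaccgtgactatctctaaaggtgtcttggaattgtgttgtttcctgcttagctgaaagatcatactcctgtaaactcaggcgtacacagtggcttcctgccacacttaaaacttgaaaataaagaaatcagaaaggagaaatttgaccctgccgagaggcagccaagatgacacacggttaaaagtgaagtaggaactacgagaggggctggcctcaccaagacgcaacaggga
Gsn start 1, chr2:35256109-35256358, plus strand: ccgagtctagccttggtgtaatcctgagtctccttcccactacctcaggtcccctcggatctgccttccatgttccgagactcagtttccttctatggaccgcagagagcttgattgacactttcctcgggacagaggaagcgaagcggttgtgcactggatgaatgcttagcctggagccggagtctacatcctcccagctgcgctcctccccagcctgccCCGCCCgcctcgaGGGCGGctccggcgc
Gsn start 2, chr2:35266494-35266743, plus strand: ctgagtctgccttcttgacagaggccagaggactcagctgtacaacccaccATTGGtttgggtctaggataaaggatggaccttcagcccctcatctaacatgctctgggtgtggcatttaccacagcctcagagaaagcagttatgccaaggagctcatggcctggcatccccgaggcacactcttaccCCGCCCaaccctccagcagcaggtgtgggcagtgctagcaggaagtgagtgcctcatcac
Gsn start 3, chr2:35282130-35282379, plus strand: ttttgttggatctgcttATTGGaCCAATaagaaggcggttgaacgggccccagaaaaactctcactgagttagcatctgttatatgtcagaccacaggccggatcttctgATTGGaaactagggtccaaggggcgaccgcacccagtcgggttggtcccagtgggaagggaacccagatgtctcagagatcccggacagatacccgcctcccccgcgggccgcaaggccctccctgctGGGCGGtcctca

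By the GENCODE M21 annotation the first Gsn window lay outside any gene, and the other Gsn windows lay within introns of Gsn. The Dpt and Cd34 windows reached into the annotated first exon. The Dpt window ended at 164796662, and the annotated gene began at 164796644. For Cd34 these positions were 194938820 and 194938819. Neither the Dpt nor the Cd34 window held any of the 4 motifs. The GC box was in all 3 Gsn windows and in that of Sema3c, 4 of 9 windows of members, against 32.7% of 32851 windows of the same length over all genes. The CCAAT box was in 3 of the 9, from Gsn starts 2 and 3 and from Pi16, against 33.8% of all windows. The TATA box was found only before Dpp4, against 12.4% of all windows, and the half-site before none of the 9, against 14% of all windows. These matches are descriptions of letters, and no binding was measured.

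The secreted matrix and actin-binding members were considered first. Dpt encodes dermatopontin, a small matrix protein that binds decorin and collagen fibrils. The gene (ENSMUSG00000026574) lies on chromosome 1 from 164796644 to 164824266 on the plus strand of GRCm38, the build that mm10 also names. Its FPKM was 236.9 in WT and 67.3 in Postn-DTR, from about 8367 and 2461 estimated fragments. The Postn-DTR value was the lower, at 0.284 of WT with a counting interval from 0.272 to 0.297. The change of -1.80 was the most negative of the 10, and 0.861% of the genes compared had a more negative one.

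Clec3b encodes tetranectin, a secreted lectin-like protein that binds plasminogen. It (ENSMUSG00000025784) lies on chromosome 9 from 123150946 to 123157432 on the plus strand. Its FPKM was 353.9 in WT and 101.8 in Postn-DTR. The Postn-DTR value was again the lower, at 0.288 of WT (0.273 to 0.303), so Clec3b and Dpt had nearly the same ratio and their counting intervals overlapped. The change was -1.79, with 0.884% of genes more negative.

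Gsn encodes gelsolin, which severs and caps actin filaments inside cells and is also secreted. It (ENSMUSG00000026879, chromosome 2, 35256380 to 35307892, plus strand) was the most abundant member in both libraries. The FPKM values were 1566 for WT and 605.1 for Postn-DTR, a ratio of 0.387 (0.382 to 0.391) and a change of -1.37. Gsn alone made up 62.2% of the summed FPKM of the 10 genes in WT and 53.2% in Postn-DTR. That sum was 2516 in WT and 1138 in Postn-DTR, and without Gsn it was 950.9 and 532.5. The files give 1 value per gene, so the values of the 3 starts shown above were not separated.

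Other actin regulators were compared with Gsn. Of 7 gelsolin-family relatives 4 passed the minimum, none was at least 2-fold lower, and 1 was higher. The macrophage-rich capping protein gene Capg was at 125.3 FPKM in WT and at 179.7 in Postn-DTR. Flii, the flightless homologue, was at 53.2 and 52.7. The family member that was higher, Vill, had a low level in both libraries, 2.59 and 6.87, and it fell below the 2-fold limit at equal totals. The list's median of 0.25 became -0.086 at equal totals. None of 6 genes of actin and myosin filaments reached 2-fold in either direction, with a median of -0.078 (-0.42 at equal totals), and Actb was at 1469 and 1268.

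**Figure D1:**
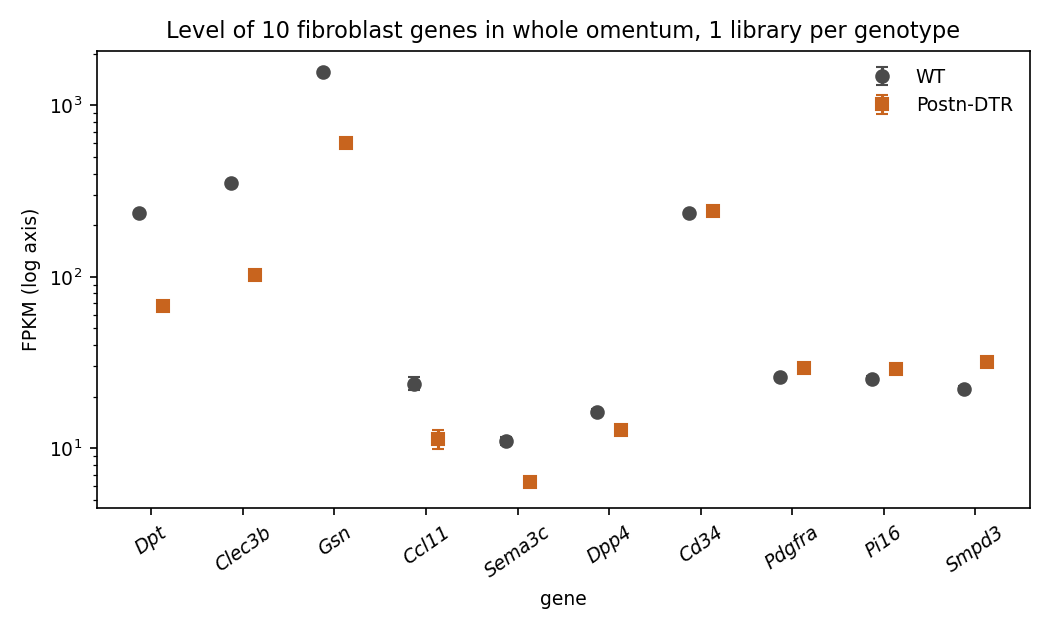
FPKM of the 10 genes (log axis) in the WT library (grey circles) and the Postn-DTR library (orange squares), with 95% counting intervals as bars, which are mostly smaller than the symbols. Dpt fell from 236.9 to 67.3 while Cd34, at almost the same WT level of 235.7, was at 243.0 in Postn-DTR.

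The secreted signals were Ccl11 and Sema3c. Ccl11 encodes eotaxin, a chemokine that attracts eosinophils through the receptor CCR3 and that DPP4 can trim at its amino end. It (ENSMUSG00000020676) lies on chromosome 11 from 82057823 to 82062955 on the plus strand. Its FPKM was 23.8 in WT and 11.3 in Postn-DTR. This was the shallowest member, with about 486 and 239 estimated fragments, and the Postn-DTR value was 0.473 of WT (0.403 to 0.554). The counting interval therefore included a ratio above the 2-fold limit. With a pseudocount of 5 the change of -1.02 became -0.82 and Ccl11 no longer counted as 2-fold lower.

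Ccl11 lies in a row of CC chemokine genes on chromosome 11. Ccl1, 1 of the 5 listed neighbours, was under the minimum at 0.566 FPKM in WT and at 0.411 in Postn-DTR. Of the 4 that passed it, 3 were at least 2-fold higher and none was lower, with a median of 1.36. Ccl2, a monocyte attractant, rose from 14.4 to 40.8. Ccl7 rose from 10.1 to 26.0 and Ccl12 from 5.27 to 24.7. Ccl8 was at 127.6 and 223.0, within 2-fold. At equal totals the median was 1.03 and 2 of the 4 were still at least 2-fold higher. The macrophage list was read beside these values. All 10 of its genes had a positive change, 4 (Adgre1, Itgam, Cd68 and Cd14) were at least 2-fold higher, and none was at 0 in either library. The summed FPKM was 2959 in WT and 4931 in Postn-DTR, of which Lyz2 held 2459 and 3563. The part of macrophages in the chemokine values was not tested.

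The eosinophil list held the eotaxin receptor gene, eosinophil genes and a ligand gene, Ccl24, and 3 of its 7 genes were under the minimum. Ccr3, the receptor gene, was at 0.363 FPKM in WT and at 0.122 in Postn-DTR, under the minimum. Epx, the eosinophil peroxidase gene, was at 0.0862 and 0.0333, and Siglecf, a surface lectin of eosinophils, was at 0.0584 and 0.207, so these 3 defining genes were close to 0 in both libraries. Prg2, the major basic protein gene, was measurable at 8.30 and 9.26, and Il5ra, an interleukin receptor gene, at 3.69 and 6.29. The 4 genes that passed the minimum, Ccl24 among them, all had a positive change, although that of Prg2 turned to -0.165 at equal totals. Their median was 0.58, or 0.28 at equal totals. With the 3 defining genes close to 0, this median is no measure of eosinophils. Of the 4, Ear2 alone was at least 2-fold higher, at 13.7 and 29.1. Ear2 was within 2-fold both at equal totals and when the 75th percentiles were matched. Ccl24, which encodes another eotaxin, was at 14.1 and 20.8.

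Sema3c encodes a secreted class 3 semaphorin that acts through neuropilins and plexins. It (ENSMUSG00000028780, chromosome 5, 17574281 to 17730268, plus strand) was the least abundant member in both libraries. The FPKM values were 11.0 for WT and 6.35 for Postn-DTR, a ratio of 0.579 (0.530 to 0.633). The change of -0.70 lay between those of the lowered group and those of the rest, and 6.35% of genes compared were more negative. At equal totals it became -1.01, which would count as 2-fold lower. Among the other class 3 semaphorins 4 of 6 passed the minimum and none reached 2-fold, with Sema3b at 6.45 and 4.03 and Sema3g at 8.97 and 16.1.

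The genes for semaphorin 3C receptors were all 7 measured and within 2-fold, with a median of -0.26 that was -0.57 at equal totals. Nrp1, the neuropilin gene with the higher level, was at 32.4 FPKM in WT and at 22.1 in Postn-DTR. Plxnd1, which encodes a plexin, had the most negative change of -0.95, at 34.8 and 17.5, and passed the 2-fold limit both at equal totals and when the 75th percentiles were matched. Plxna4 had the highest change, at 4.02 and 6.06.

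Dpp4, Pi16 and Cd34, whose proteins sit on the cell surface, were each within 2-fold. Dpp4 encodes a serine peptidase, CD26, found on these fibroblasts and also on T cells. It (ENSMUSG00000035000, chromosome 2, 62330073 to 62412231, minus strand) was at 16.3 FPKM in WT and at 12.8 in Postn-DTR. The Postn-DTR value was 0.788 of WT (0.737 to 0.843), a change of -0.32 that 19.6% of genes exceeded in the negative direction. The change was negative under all 7 alternatives, from -0.64 to -0.26, but only the other scalings among them could have turned its sign. The T cell list was read beside Dpp4. All 11 compared had a negative change, and 4 (Cd3e, Lck, Cd5 and Cd27) were at least 2-fold lower. That count became 6 with matched 75th percentiles and 8 at equal totals. None was at 0, and their summed FPKM was 165.3 in WT and 88.4 in Postn-DTR. Thy1, also on the general fibroblast list, held 55.4 and 36.2 of these sums. The part of T cells in the Dpp4 value was not tested. Fap, the closest relative of Dpp4 and a marker of activated fibroblasts, was at 4.94 and 2.35, a change of -0.82 on the log2(FPKM + 1) scale that became -1.09 at equal totals. The other 4 prolyl peptidase genes changed by -0.23 to 0.03.

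Pi16 encodes peptidase inhibitor 16, a membrane-anchored protein by which adventitial fibroblasts are recognised. It (ENSMUSG00000024011, chromosome 17, 29317680 to 29330593, plus strand) was at 25.2 FPKM in WT and at 29.0 in Postn-DTR. The values were close, with the Postn-DTR value 1.15 times that of WT (1.09 to 1.21). Its change was 0.19 and became -0.14 at equal totals, so no direction can be given.

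Cd34 encodes a sialomucin carried by adventitial fibroblasts and by the endothelium. It (ENSMUSG00000016494, chromosome 1, 194938819 to 194961279, plus strand) was at 235.7 FPKM in WT and at 243.0 in Postn-DTR, a ratio of 1.03 (1.01 to 1.06). In WT its counting interval, 231.5 to 239.9, overlapped that of Dpt, 231.8 to 242.0. In Postn-DTR the level of Cd34 was 3.61 times that of Dpt. The change of 0.04 turned to -0.06 when the 75th percentiles were matched and to -0.30 at equal totals. Endothelial genes and relatives of Cd34 were read beside it. All 12 were compared, none reached 2-fold, and their median change was -0.061. At equal totals it was -0.40, and 1 gene, Kdr, passed the limit. Kdr had the most negative change, at 22.4 FPKM in WT and 13.6 in Postn-DTR. Cldn5 had the most positive, at 13.9 and 19.7. Podxl, which encodes the related sialomucin podocalyxin, was at 66.5 and 60.8, and Pecam1 was at 109.0 and 109.5. Whole tissue does not show how much of Cd34 came from either cell type.

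Smpd3 encodes a neutral sphingomyelinase, a membrane enzyme that releases ceramide. It (ENSMUSG00000031906, chromosome 8, 106252548 to 106337988, minus strand) had the most positive change of the 10, 0.50. The FPKM values were 22.1 for WT and 31.7 for Postn-DTR, a ratio of 1.43 (1.36 to 1.51), and 12.5% of genes compared were more positive. The change was positive under all 7 alternatives that apply to it, down to 0.17 at equal totals. Only the other scalings among them could have turned its sign. Its exons overlap those of Prmt7 on the opposite strand, and whether the counting used strand was not given, so this value is uncertain. Dpp4, Pi16, Cd34 and Pdgfra also overlap annotated genes on the opposite strand, and a microRNA gene lies on the strand of Pdgfra. Of the 8 other genes of sphingomyelin and ceramide turnover 1 was at least 2-fold higher and none lower. That gene, Smpdl3a, rose from 90.6 to 225.5 and was within 2-fold at equal totals. Smpd1, which encodes the acid sphingomyelinase, was at 35.1 and 32.5, and Sgms1, a sphingomyelin synthase gene, was at 14.3 and 21.1.

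Pdgfra encodes the platelet-derived growth factor receptor alpha, CD140a, which marks fibroblasts generally. It (ENSMUSG00000029231, chromosome 5, 75152292 to 75198215, plus strand) was at 26.0 FPKM in WT and at 29.2 in Postn-DTR, a ratio of 1.13 (1.08 to 1.18). The change was 0.17 and turned to -0.17 at equal totals. The related receptor gene Pdgfrb, which pericytes and fibroblasts use, fell from 41.3 to 17.3. Among the ligands, Pdgfc rose from 4.21 to 9.55, although its change of 1.02 was under the 2-fold limit after each of the other scalings. Pdgfa was at 13.4 and 8.69, within 2-fold. Of these 5 other PDGF genes 1 was thus lower and 1 higher.

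**Figure D2:**
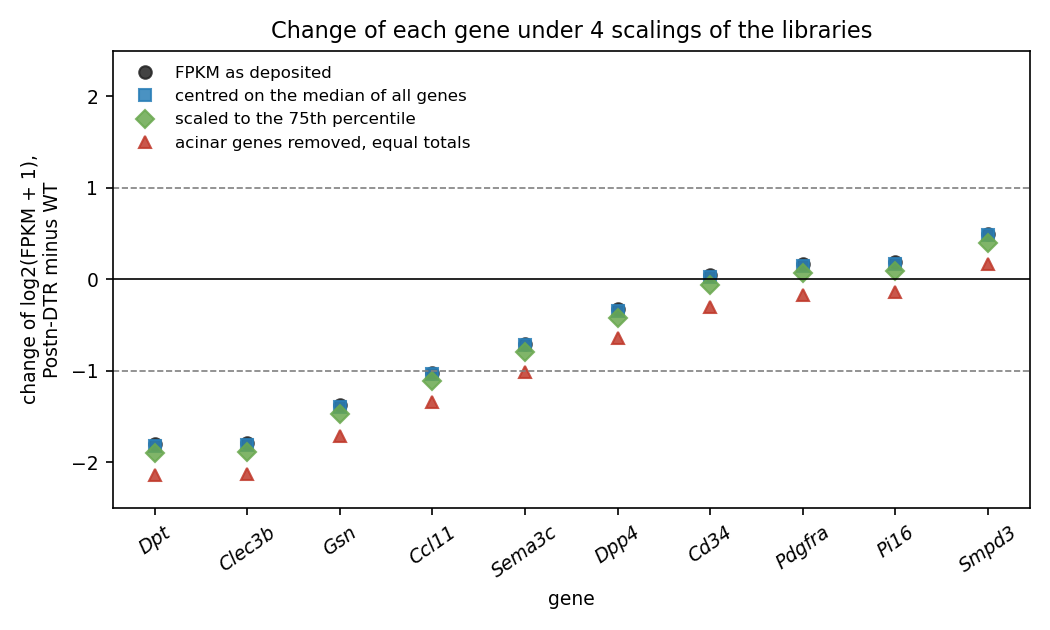
Difference in log2(FPKM + 1) between Postn-DTR and WT (positive where Postn-DTR is higher) for each of the 10 genes under the deposited scaling and 3 others. Dashed lines mark 2-fold. Dpt, Clec3b, Gsn and Ccl11 lie below the lower line under all 4 scalings, whereas Pdgfra and Pi16 move across 0 at equal totals and Cd34 does so there and with matched 75th percentiles.

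Because scaling moves all genes of a library together, the members were also divided by Pdgfra of the same library. This ratio does not depend on a common factor between libraries and shows unequal change only. Dpt was 9.12 times Pdgfra in WT and 2.30 times in Postn-DTR. Clec3b went from 13.6 to 3.48 and Gsn from 60.3 to 20.7. Ccl11, at 0.918 in WT, was at 0.386 in Postn-DTR. Relative to Pdgfra these 4 genes were thus at 0.252 to 0.420 of their WT ratio. Sema3c was at 0.514 of it, and Dpp4 went from 0.628 to 0.439. Pi16 kept the ratio most closely, with 0.973 in WT and 0.991 in Postn-DTR. Cd34 was at 9.08 and 8.31, and Smpd3 at 0.853 and 1.085.

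**Figure D3:**
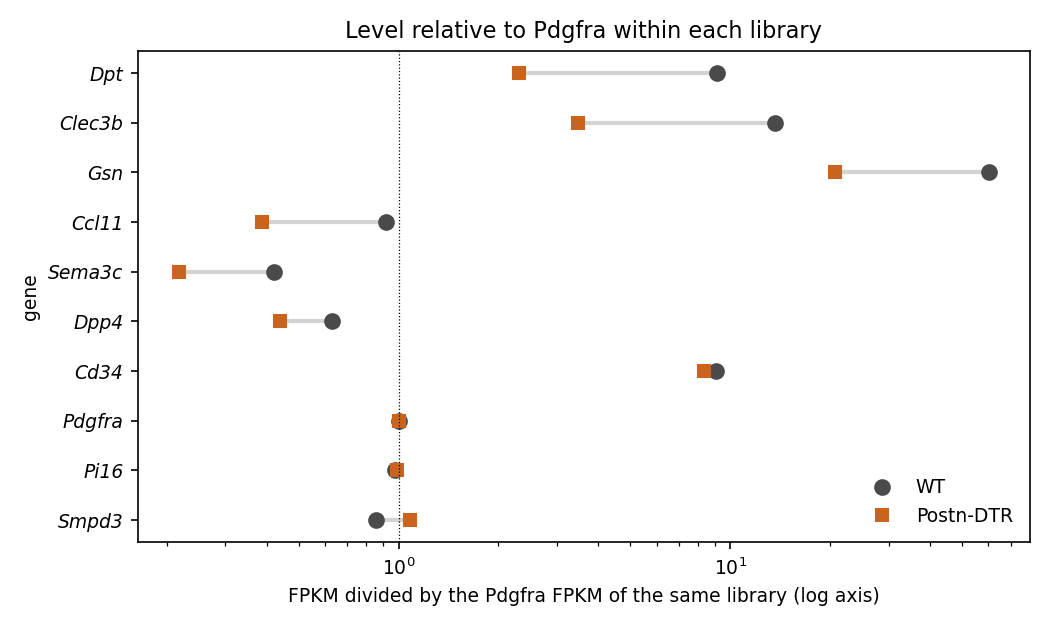
FPKM of each gene divided by the Pdgfra FPKM of the same library (log axis), WT as grey circles and Postn-DTR as orange squares joined by a line. The longest lines belong to Dpt, Clec3b and Gsn, and the symbols of Pi16 nearly coincide at 0.973 and 0.991.

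The order of levels in WT was Gsn, Clec3b, Dpt, Cd34, Pdgfra, Pi16, Ccl11, Smpd3, Dpp4 and Sema3c. Dpt and Cd34 could not be separated by counting error, nor could the neighbours Pdgfra and Pi16, Pi16 and Ccl11, or Ccl11 and Smpd3, whose intervals overlapped. In Postn-DTR the order was Gsn, Cd34, Clec3b, Dpt, Smpd3, Pdgfra, Pi16, Dpp4, Ccl11 and Sema3c. There, Pdgfra and Pi16 overlapped in their intervals, as did Dpp4 and Ccl11. Cd34 thus moved from position 4 to position 2, and Ccl11 from 7 to 9. Gsn kept position 1 and Sema3c position 10.

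Other genes of the same fibroblast types were read from lists. Of 20 further genes of progenitor-like adventitial fibroblasts 19 passed the minimum, 3 were at least 2-fold lower and 2 were higher. Their median change was 0.21 and turned to -0.13 at equal totals. Pcsk6, a proprotein convertase gene, fell from 16.5 to 4.59. Cd55, which encodes a complement inhibitor and marks these progenitors, fell from 48.8 to 20.3, and Efhd1 from 9.34 to 2.87. Has1, a hyaluronan synthase gene, rose from 0.976 to 14.4. Wnt2 was the other higher gene, at 4.71 and 11.1, and was within 2-fold both at equal totals and when the 75th percentiles were matched. Ly6a, which encodes the surface protein SCA-1, was at 344.8 and 399.0, a change of 0.21 that turned to -0.13 at equal totals.

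Committed preadipocyte genes (17 of 18 compared) had a median change of -0.36, with 3 at least 2-fold lower and 2 higher. At equal totals the median was -0.69, with 6 lower and 1 higher. Col15a1, a basement membrane collagen gene, fell from 152.8 to 57.7. Ggt5 fell from 10.4 to 3.69, and Pparg, which is also on the adipocyte list, from 59.1 to 27.3. Mgp, the matrix Gla protein gene, rose from 575.7 to 3182. Apoe, at 3922 and 9479, was the other higher gene, is abundant in macrophages too, and was within 2-fold at equal totals.

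General fibroblast genes were mostly below their WT level. All 18 were compared, 3 were at least 2-fold lower, none was higher, and 14 had a negative change, with a median of -0.44. At equal totals 6 were at least 2-fold lower and the median was -0.78. Pcolce, which encodes an enhancer of procollagen processing, fell from 232.4 to 98.7, Col6a3 from 46.9 to 20.9, and Pdgfrb as given above. The highest change was that of Pdpn, the podoplanin gene, at 46.6 and 57.1. Its change of 0.29 turned to -0.049 at equal totals, where no gene of the list had a positive change. Dcn, the decorin gene, was at 1875 and 2152, a change of 0.20 that turned to -0.14 at equal totals. Thy1 and Fap of this list are also on other lists.

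Markers of the cells that the toxin was meant to remove were read as well. Of 8 further genes given for these cells or for their Ccl11+ cluster 7 passed the minimum, 1 was at least 2-fold lower and 1 higher, and the median was -0.11, or -0.43 at equal totals. Ccl11, Clec3b and Gsn also mark that cluster, were each at least 2-fold lower, and are counted among the 10 genes and not here. Phex was under the minimum, at 0.3397 FPKM in WT and at 0.0137 in Postn-DTR. Postn, of which 1 copy is altered in Postn-DTR mice, was the lower gene. Ptx3 was the higher, at 1.40 and 6.30. Aldh1a2 was at 85.5 and 63.3. Tek, the gene of TIE2, was at 8.96 and 7.61, and Adm was at 14.2 and 13.1. Ace, named Cd143 in the study, was at 46.5 and 56.9, a change of 0.28 that turned to -0.053 at equal totals. These markers were thus within 2-fold. Mfap5, a microfibril gene reported for the same cluster as Clec3b and Gsn and also on the progenitor list, was at 78.4 and 109.7.

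**Figure D4:**
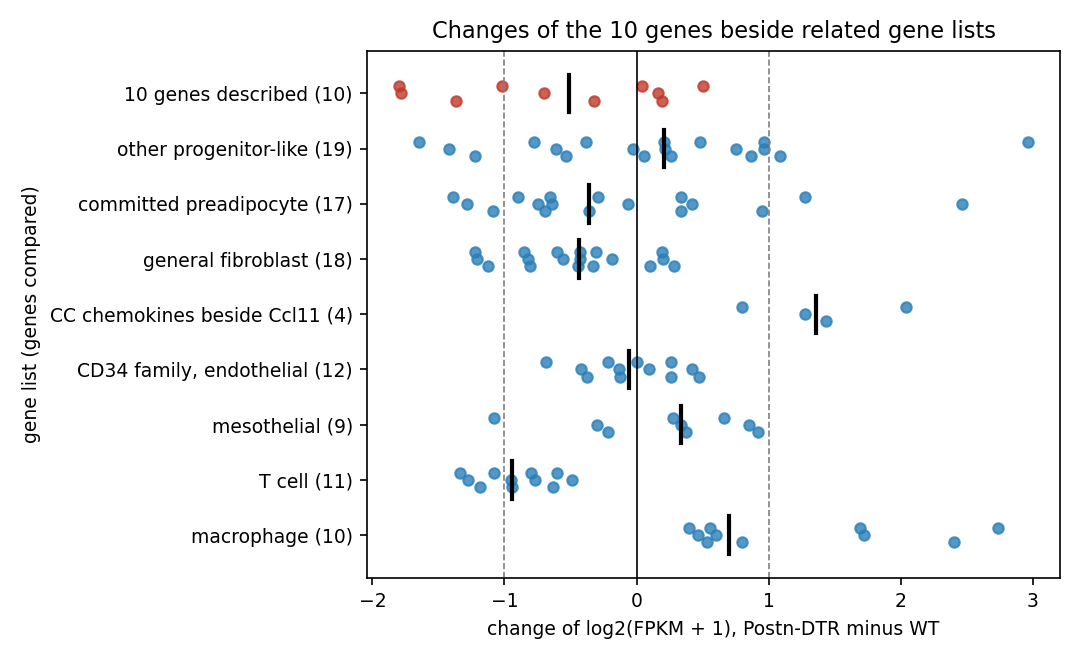
Difference in log2(FPKM + 1) between Postn-DTR and WT for single genes (points) in the 10 genes described and in related lists, with the number compared in brackets and black bars at the median. Dashed lines mark 2-fold. The 10 genes lie between -1.80 and 0.50, and the 4 CC chemokine genes compared beside Ccl11 lie above 0.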

How the data were processed

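Whole-omentum RNA was sequenced from 1 WT and 1 Postn-DTR library, grouped by the genotype label. Per the labels, miRNeasy columns gave the total RNA and TruSeq stranded mRNA reagents the libraries. The submitters' processing notes name TopHat2 2.1.1, Bowtie2 2.2.8, SAMtools 0.1.18, Cuffdiff 2.2.1 and mm10, and the annotation was not given in the sources used here. The authors deposited FPKM, 1 value per gene symbol and library. Members and gene lists were chosen with earlier results of these data known. Genes named were the 10 members and, from 22 lists of related genes and cell types, at most 4 examples per list (the lowest and highest change and partners of members). Genes behind counts of 5 or fewer and a few others (Ly6a, Dcn, Actb, Acta2, Sgms1, Aldh1a2, Mfap5, Tek, Adm, Ace, Prg2, Il5ra, Phex, Ccl1, Pecam1, Thy1, Lyz2) were named after their values were seen. Positions and lengths came from GENCODE M21 (GRCm38), upstream sequences from RefSeq. Depth was estimated from FPKM under 0.2 of genes with 1 transcript: denominators of 23300000 and 24000000 fragments brought 80.9% and 82% of low values within 0.1 of a whole read, with effective lengths cut by 208 and 200 bases. Fragments of members used the longest principal transcript. Ratio intervals are exact binomial and level intervals exact Poisson (95%, scipy 1.17.1). The estimator and the fold rule were tested on simulated data. No test between genotypes was possible. The alternatives concerned the pseudocount, the filter, the scaling and the fold limit.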

Additional observations from a re-analysis of the deposited data

How the results depend on the processing

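Dpt and Clec3b counted as lower under all 9 alternatives, and Gsn under all but the 3-fold limit, which left 2 members. Ccl11 dropped out at 3-fold and with a pseudocount of 5, and Sema3c was added at equal totals and at 1.5-fold. No member was at least 2-fold higher under any of the 9 alternatives. The median change of the members was -0.37 with a pseudocount of 5, -0.32 with a mean FPKM of at least 10 (which left out Sema3c), -0.61 with matched 75th percentiles and -0.82 at equal totals without acinar genes. Of 69 values of single members under the alternatives 50 moved by less than the distance from the middle to an end of the 95% counting interval of the log2 ratio, 15 moved by more and 4 changed sign. The 4 were Cd34 at -0.059 with matched 75th percentiles and, at equal totals, Cd34 at -0.30, Pi16 at -0.14 and Pdgfra at -0.17. The filter settings leave the value of each member as it is, so their values are among the 50 by construction. A pseudocount cannot change a sign, so only the other scalings could do so. Over all genes, 410 were lower and 509 higher. The lower count became 643 with a pseudocount of 0.1, 168 with a pseudocount of 5, 173 with a mean FPKM of at least 10, 1160 at 1.5-fold, 153 at 3-fold and 795 at equal totals. The higher count became 287 with a pseudocount of 5, 303 with the filter at 10, 1294 at 1.5-fold, 199 at 3-fold and 306 at equal totals. The share of higher among changed genes was 55.4%, and 27.8% at equal totals. No paired analysis was possible because each genotype had 1 library, and no replicate could be left out. Depth did not limit the members other than Ccl11, whose counting interval spanned the 2-fold limit.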

Other observations

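Other cell types of the omentum were read for the same libraries. Of 8 smooth muscle and pericyte genes 2 were at least 2-fold lower and none higher, with a median change of -0.73. At equal totals 5 were lower and the median was -1.06. Rgs5, a pericyte gene, was at 30.6 FPKM in WT and at 2.56 in Postn-DTR, and Notch3 at 21.3 and 3.53. Acta2 was at 94.6 and 108.9, a change of 0.20 that turned to -0.14 at equal totals. Cnn1 had the highest change, 0.99 (0.73 at equal totals), at the low levels of 2.31 and 5.58. The Ccl19+ reticular cell list had 2 of 5 genes at least 2-fold lower, Ccl19 at 61.1 and 17.8 and Matn2 at 24.7 and 9.91. Apoe was the 1 higher gene, and the median of 0.13 turned to -0.21 at equal totals. Unlike these single libraries, the study's quantitative PCR on several mice found Ccl19 at comparable levels in omenta of both genotypes.

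Mesothelial genes (9 compared of 10 listed) had 1 gene at least 2-fold lower, Lrrn4, at 62.7 and 29.2, and none higher. Counting changes of any size, 6 of the 9 were positive and 3 negative. The most positive was that of Upk1b, 0.92 (0.58 at equal totals), with levels of 39.4 and 75.3. The list's median of 0.33 was -0.0048 at equal totals. Of 10 adipocyte genes 1, Pparg, was at least 2-fold lower and none higher, with a median of -0.46. Centring or matched 75th percentiles gave 2 lower, and equal totals gave 3 with a median of -0.81. None of 9 housekeeping genes reached 2-fold, and their median of 0.19 was -0.13 at equal totals.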
